A study of Mus musculus with 15 samples.

Results

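The cells of this study were sorted by surface antigens, and the genes of 5 of those antigens are followed here: Cd34, Itgam (the CD11b antigen), Ly6g (Ly6G), Ly6c2 (Ly6C) and Ptprc (CD45, whose long splice form is the B220 antigen). Each was taken as the probe set that lists that gene symbol alone; where other genes have several, the brightest on average was kept. The 5 genes are 5 of 22180 genes that a probe set of 1 symbol measures, each had 1 such probe set, and all 5 passed the filter on low values described with the processing. RNA of mouse myeloid cells was measured on 15 single-colour Affymetrix arrays, 3 per group, as log2 RMA signals.

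The groups are named by the code in their titles. MDSC arrays hold Ly6C+CD11b+ suppressor cells of C57Bl/6 bone marrow grown with G-CSF, GM-CSF and IL-13. GFE, GFK, RB and GFW arrays hold spleen cells of mice treated with G-CSF, the growth factor that drives granulocyte production and sends progenitors into the blood and spleen. The spleen gate took CD11b+CD34+ cells after removal of cells with CD4, CD8, Ly6G, B220 or Ter119. Its cells came from C57Bl/6 mice for GFE, RB and GFW, and from mice labelled iNOS knockout, with the same C57Bl/6 strain label, for GFK. GFE cells were sorted in the same way and then cultured for 3 days with the cytokines SCF and Flt3 ligand, while MDSC are the only group grown from marrow and the only group whose gate names Ly6C. RB and GFW carry the same labels and differ in the title code. GFE, GFK and GFW share a title prefix, whereas RB and MDSC have a prefix of their own, so for these 2 groups the sorted population and whatever the prefix stands for cannot be told apart. Age, sex and the part of the gene changed in the knockout are not stated in the labels, which also do not say whether the 3 arrays of a group came from separate mice or cultures, so the p-values measure the spread between arrays, which may be technical.

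CD34 is a sialomucin of blood stem and progenitor cells and of vessel lining cells. CD11b is the alpha chain that pairs with CD18 (Itgb2) into the integrin Mac-1, which neutrophils and monocytes use to adhere and to take up complement-coated particles. Ly6G and Ly6C are small surface proteins held by a glycosylphosphatidylinositol (GPI) anchor: in mice Ly6G marks neutrophils, and a high level of Ly6C marks classical monocytes and is also found, lower, on neutrophils. CD45 is the receptor-type phosphatase of all white cells, which acts on Src family kinases. The probe set of Ptprc reads the gene and was not split by exon, so it does not tell B220 from the shorter CD45 forms.

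The 250 bases before and 50 after the start of transcription are shown for the genes of CD11b, Ly6G and Ly6C. Ly6g and Ly6c2 are close relatives with similar start regions and different levels across the groups, and Itgam is the other myeloid antigen of the gate. The sequences are RefSeq's (build GRCm38.p6), and all 5 members matched by symbol. Capitals mark GAGGAA on either strand (TTCCTC on the strand shown), the core that PU.1, a transcription factor of myeloid cells, is known to bind.
Itgam, chr7:128062390-128062689, plus strand: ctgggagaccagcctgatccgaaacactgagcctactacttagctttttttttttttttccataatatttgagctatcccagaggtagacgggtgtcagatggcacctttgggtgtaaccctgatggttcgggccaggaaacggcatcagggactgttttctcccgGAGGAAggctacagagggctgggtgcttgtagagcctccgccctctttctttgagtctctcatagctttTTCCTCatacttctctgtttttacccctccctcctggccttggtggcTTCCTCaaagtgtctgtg
Ly6g, chr15:75155079-75155378, plus strand, the second of its 2 starts: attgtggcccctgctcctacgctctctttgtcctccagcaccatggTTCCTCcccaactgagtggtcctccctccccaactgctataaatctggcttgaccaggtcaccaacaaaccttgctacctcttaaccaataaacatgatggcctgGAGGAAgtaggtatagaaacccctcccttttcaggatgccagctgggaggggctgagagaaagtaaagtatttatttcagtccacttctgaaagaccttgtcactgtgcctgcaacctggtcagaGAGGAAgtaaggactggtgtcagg
Ly6c2, chr15:75111922-75112221, minus strand, the first of its 2 starts: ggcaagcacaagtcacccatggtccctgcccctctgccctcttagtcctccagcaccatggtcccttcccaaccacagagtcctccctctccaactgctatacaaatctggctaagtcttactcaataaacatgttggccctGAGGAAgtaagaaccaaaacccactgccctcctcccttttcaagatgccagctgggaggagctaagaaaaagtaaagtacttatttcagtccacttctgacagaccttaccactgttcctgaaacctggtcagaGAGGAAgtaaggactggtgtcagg
The Itgam window held 3 matches, starting 84 and 15 bases before and 32 bases after the start. Ly6g had 3, at 204 and 99 bases before and 26 bases after, and Ly6c2 had 2, at 108 bases before and 26 bases after. Of 32851 windows of the same length in the table, 28.3% held the core, so a match is common. The Cd34 window (chr1:194938571-194938870, plus strand) held none, and of the 2 Ptprc windows (chr1:138175256-138175555 and chr1:138175077-138175376, minus strand) the first held 1 and the second none. The C/EBP motif TTGCNNAA, which 10.8% of windows held, was found once, in the other Ly6g window (chr15:75155011-75155310), and the RUNX core TGTGGT, in 16.8% of windows, was found in the Ly6c2 windows alone. The Ly6g and Ly6c2 windows printed above aligned over 273 bases with 234 identical (85.7%), and their last 36 bases were the same. The other Ly6g window and the printed Ly6c2 window aligned over 223 bases with 180 identical (80.7%). The printed Ly6g window and the other Ly6c2 window aligned over 257 bases with 221 identical (86.0%). With relatives this close, RNA of the one gene may bind probes of the other, and how far this occurs on these arrays was not tested.

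Some groups did not look like their labels. Ly6g was at 12.03 to 12.12 on GFK arrays and at 12.15 to 12.21 on GFW arrays, among the brightest probe sets of those arrays (99.4% and 99.5% of probe sets with 1 symbol were dimmer), although their gate removes Ly6G+ cells. Cd34 on RB arrays, which are labelled CD34+, was at 5.79 to 5.99, near the middle of all probe sets (52.1% were dimmer). Nos2, the gene of iNOS, was 8.84 to 8.92 on the arrays labelled knockout and 8.09 to 8.43 on GFW arrays, a difference of 0.61 (limma adjusted p = 0.0125), and it was 6.14 to 6.26 on MDSC, 6.57 to 6.68 on GFE and 5.80 to 6.21 on RB arrays. Whether the Nos2 probe set lies outside the deleted part is not known here, so it may check nothing. RNA level and surface protein are different measurements, and no protein was measured in these files. In bulk samples, fewer cells of a type and less RNA per cell cannot be told apart. The number of arrays limits the precision of every value.

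**Figure D1:**
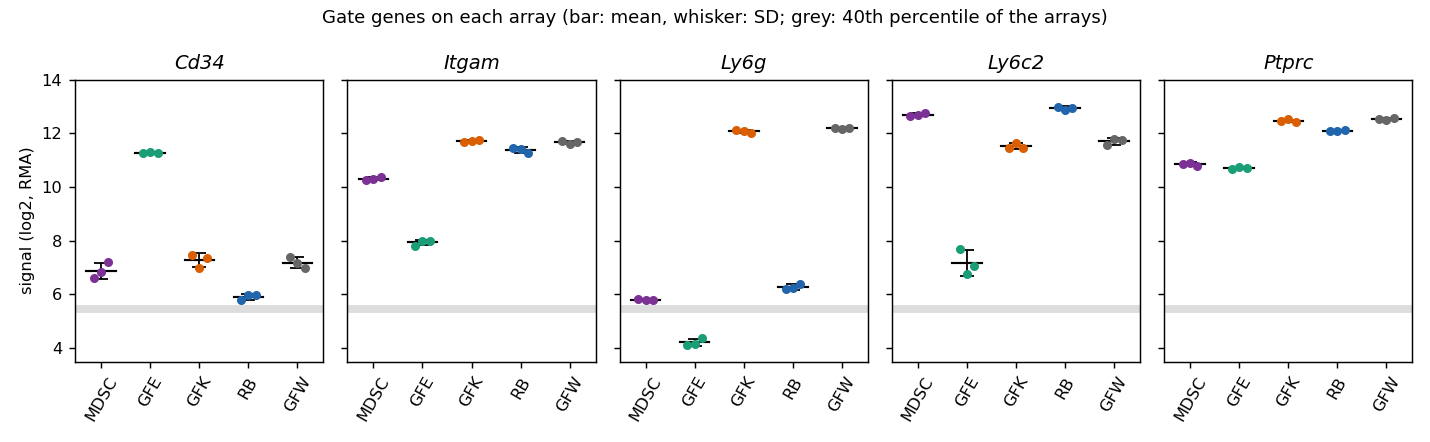
Level of each gate gene on each of the 15 arrays (y axis, log2 RMA signal) by group (x axis), with a bar at the group mean, a whisker of 1 SD and a grey band over the 40th percentile of the arrays, 5.34 to 5.58. Cd34 stands out on GFE arrays (11.25 to 11.31), Ly6g is high on GFK and GFW arrays alone, and Ly6c2 is lowest on GFE arrays.

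Cultured GFE cells carried far more Cd34 RNA and far less of the myeloid antigens than GFW cells. All 5 genes passed the test in GFE minus GFW (limma, adjusted p under 0.05), where 67% of the 14822 genes tested also passed. Cd34 was the 1 gene higher there, beside 35.1% of all genes, and 4 were lower, beside 31.9%. The median size of their difference, without sign, was 4.10 log2, beside 0.52 over all genes tested. RB differed from GFW in all 5 genes as well (52.4% of all genes), with 1 higher and 4 lower beside 25.8% and 26.5% of all genes, and a median size of 1.24 log2 against 0.38. MDSC and RB differed in 4 of the 5 genes (48.1% of all genes), 1 higher beside 27.4% and 3 lower beside 20.7%. MDSC and GFW differed in 4 (62.2% of all genes), 1 higher beside 32.3% and 3 lower beside 30% of all genes. MDSC minus GFE gave 4 (35.5% of all genes), 3 higher beside 16.6% and 1 lower beside 18.9%.

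Arrays labelled knockout differed from GFW in 0 of the 5 genes by limma, also at an unadjusted p under 0.05, beside 1.61% of all genes (1.3% higher and 0.317% lower). In this comparison the median size was 0.08 log2 for the 5 genes and 0.12 over all genes. The other 4 pairs had all 5 genes called. MDSC minus GFK had 1 higher and 4 lower, beside 60.9% of all genes called, 32.5% higher and 28.4% lower. GFE minus GFK had the same split, beside 65.8%, of which 35.4% higher and 30.5% lower, and so had GFE minus RB, beside 54.1%, of which 31% higher and 23.1% lower. GFK minus RB had 4 higher and 1 lower, beside 50.5%, of which 25.2% higher and 25.4% lower. These shares of the background are so large that a call by itself sets no gate gene apart, and comparisons with a group in common are tied to each other through its arrays. In GFE minus GFW, 5198 genes were called higher and 4733 lower, and subtracting each array's median moved the median of all genes by 0.14 log2 and the split to 5783 higher and 3286 lower. MDSC minus GFW gave 4781 higher and 4444 lower, and 5306 and 3094 after the same step, with a shift of 0.12 log2. The calls of the 5 genes in both comparisons were the same after it.

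**Figure D2:**
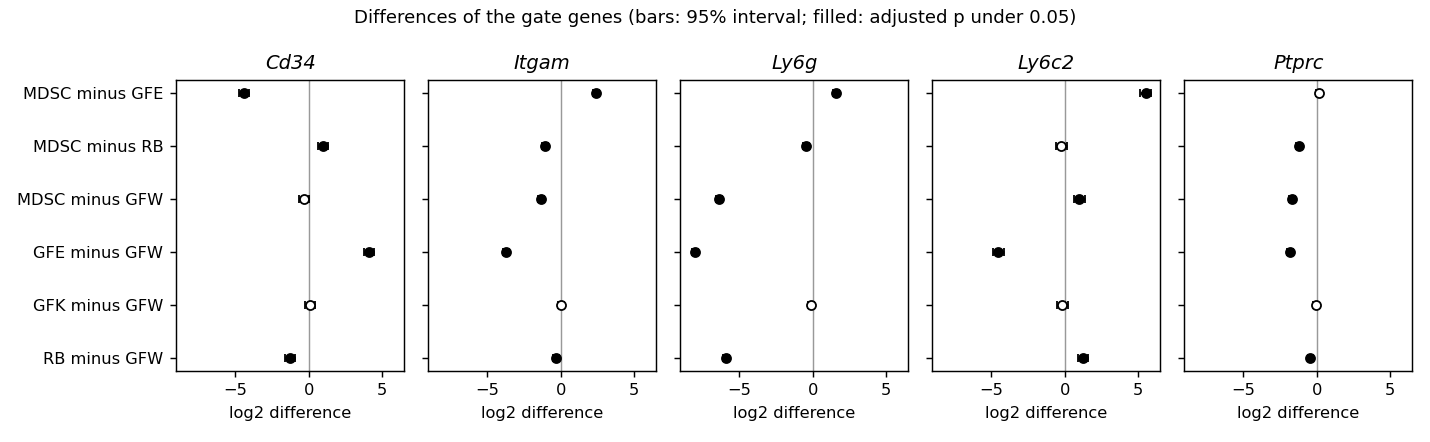
Difference of each gate gene (x axis, log2, first group minus second) in 6 comparisons (y axis), with 95% intervals from limma and filled points where the adjusted p is under 0.05. The Ly6g difference reaches -7.97 in GFE minus GFW, and all 5 points of GFK minus GFW lie near 0 and are open.

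Cd34, the antigen that the spleen gate selects for, had 6.61, 6.83 and 7.20 log2 on MDSC arrays and 11.25, 11.31 and 11.29 on GFE arrays. It had 7.46, 6.97 and 7.37 on GFK arrays, 5.79, 5.99 and 5.96 on RB arrays and 7.39, 7.18 and 6.99 on GFW arrays. Every GFE array lay above every other array, every RB array lay below every other array, and the MDSC, GFK and GFW arrays overlapped. Cultured cells averaged 11.28 ± 0.03 against 7.19 ± 0.20 for GFW (SD, n = 3 each), a 17.1-fold higher signal (4.10 log2, SE 0.16, 95% interval 3.76 to 4.43, adjusted p = 4.21e-12). RB cells averaged 5.92 ± 0.11, 2.42-fold lower than GFW (-1.27 log2, SE 0.16, interval -1.61 to -0.94, adjusted p = 7.19e-06). MDSC, whose gate does not name CD34, averaged 6.88 ± 0.30, which was 1.95-fold above RB (0.96 log2, interval 0.63 to 1.30, adjusted p = 9.65e-05). From high to low the order was GFE, GFK, GFW, MDSC, RB. Neighbours in the middle did not differ beyond their spread: GFK minus GFW was 0.08 (interval -0.26 to 0.41, adjusted p = 0.912) and MDSC minus GFW was -0.31 (interval -0.65 to 0.03, adjusted p = 0.0988). The last became a call without MDSC replicate 3 (-0.47, adjusted p = 0.0193). MDSC minus GFK was -0.39 (adjusted p = 0.0443), a call that was lost without GFK replicate 1 or 3 or MDSC replicate 1 or 2 (adjusted p up to 0.207).

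Progenitor genes moved in the same direction as Cd34 in the cultured cells. Of 10 listed genes of haematopoietic progenitors, 9 were higher in GFE than in GFW and 1 was lower, with a median of 2.79 log2 beside -0.06 over all genes, and 35.1% of all genes were called higher. Sox4, a transcription factor, was at 10.21 ± 0.08 in GFE and 6.16 ± 0.19 in GFW (4.06 log2, adjusted p = 3.42e-09). Meis1, a homeobox partner of Hox proteins in stem cells, rose by 3.52 log2, Myb, a factor needed for progenitor growth, by 3.67, and Flt3, the receptor of the Flt3 ligand in the medium, by 1.23. Kit, the receptor of SCF, went the other way and fell by 0.58 log2 (10.85 ± 0.05 in GFE, 11.43 ± 0.08 in GFW, adjusted p = 0.00914). In RB, 7 of the 10 were lower than in GFW and 1 higher, beside 26.5% and 25.8% of all genes. Kit was lower in RB by 5.92 log2, with 5.52 ± 0.49 in RB and 11.43 ± 0.08 in GFW. Averaged over the 10 genes, an array's level ran from 6.90 to 6.96 in MDSC, 9.43 to 9.51 in GFE, 7.07 to 7.27 in GFK, 6.02 to 6.19 in RB and 6.93 to 6.95 in GFW. Sox4 and Erg were near background on RB arrays, that is, their mean ranked below the 40th percentile of the array's probe sets.

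Vessel lining cells also express CD34, so their markers are given beside it. Of 8 listed endothelial genes, 5 were higher and 2 lower in GFE than in GFW (1 lower after each array's median was subtracted), beside 35.1% and 31.9% of all genes. Tek and Emcn, 2 of the 5, were near background in the other 4 groups and passed the filter through GFE, so they had to differ. Without them, a count chosen after seeing the data, 3 of 6 were higher and 2 lower, with a median of 0.36 log2. Eng (2.77 log2) and Pecam1 (2.48) rose in GFE, while Cdh5, the cadherin that defines endothelium, was 5.77 ± 0.30 in GFE and 6.14 ± 0.32 in GFW (-0.37, adjusted p = 0.083) and Vwf fell by 0.43. Eng and Pecam1 are also found on stem and progenitor cells. The mean level of all 8 genes ran from 7.20 to 7.31 on GFE arrays and from 5.96 to 6.08 on GFW arrays. Because Tek and Emcn are in this mean, part of its gap was fixed by the filter. The part of endothelial RNA in the Cd34 result was not tested.

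Of 7 relatives and partners of CD34 that were tested, 0 were higher in GFE than in GFW by limma and 4 were lower, beside 31.9% of all genes. Podxl, a close relative of CD34, was near background in all groups but GFW, where it stood at 5.59 ± 0.07, against 5.30 ± 0.34 on GFE arrays, and did not pass (adjusted p = 0.146). Ezr, the linker of such sialomucins to the cell skeleton, fell by 2.14 log2 and Selp, a selectin, by 1.17. Crkl, an adaptor reported to bind CD34, was at 8.24 ± 0.11 in GFE and 8.11 ± 0.17 in GFW (0.13, adjusted p = 0.384). In RB minus GFW, 0 of the 7 were higher and 5 lower by limma, beside 25.8% and 26.5% of all genes. Selp was at 5.63 ± 0.09 in RB and 7.82 ± 0.10 in GFW (-2.19 log2). At an unadjusted p under 0.05, 0 of the 7 were higher in either comparison.

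Itgam, the CD11b gene that both gates select for, was high everywhere but on GFE arrays. Its level was 10.28, 10.30 and 10.37 log2 on MDSC, 7.82, 8.01 and 7.998 on GFE, 11.67, 11.74 and 11.74 on GFK, 11.46, 11.41 and 11.26 on RB and 11.71, 11.62 and 11.67 on GFW arrays. GFE and MDSC arrays lay apart from all others and from each other, and the GFK and GFW arrays overlapped. After culture, Itgam was 13.2-fold lower than in GFW, at 7.94 ± 0.11 in GFE and 11.67 ± 0.05 in GFW (-3.73 log2, SE 0.09, interval -3.93 to -3.53, adjusted p = 3.15e-14). MDSC, which were sorted as CD11b+, averaged 10.32 ± 0.05 and were 2.55-fold lower than GFW (-1.35 log2, interval -1.55 to -1.15, adjusted p = 5.22e-09) and 2.09-fold lower than RB (-1.06 log2, adjusted p = 1.37e-07). From high to low the order was GFK, GFW, RB, MDSC, GFE, and GFK minus GFW was 0.05 (interval -0.15 to 0.25, adjusted p = 0.906). RB was 0.29 log2 below GFW (interval -0.49 to -0.09, adjusted p = 0.0181), a call lost without GFW replicate 1 or RB replicate 3 (adjusted p up to 0.0661), and GFK minus RB was 0.34 (adjusted p = 0.0076), lost with the 6 arrays fitted alone (adjusted p = 0.0533) and after a second quantile normalisation (0.22, adjusted p = 0.0612).

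The integrin partners of CD11b fell in GFE with it. Of 9 listed beta-2 integrin genes and activators, 8 were lower in GFE than in GFW and none higher (median -1.33 log2, all genes -0.06), beside 31.9% of all genes called lower. This median was the measured difference of Itgad (4.90 ± 0.28 in GFE, 6.23 ± 0.26 in GFW), which was near background in MDSC, GFE and RB. Itgb2, the shared beta chain, was 9.42 ± 0.08 in GFE and 11.94 ± 0.06 in GFW (-2.52 log2, adjusted p = 1.2e-11). Itgal, the alpha chain of LFA-1, fell by 2.40 log2, Itgax, the CD11c chain, by 3.60, and Rasgrp2, which switches on the integrin activator Rap1, by 1.78. Fermt3 (kindlin-3), which binds the beta chain, did not pass (0.09, adjusted p = 0.417). In MDSC minus RB, 6 of the 9 were lower and 1 higher, beside 20.7% and 27.4% of all genes. Itgal was 7.88 ± 0.17 in MDSC and 11.22 ± 0.03 in RB (-3.34 log2, adjusted p = 6.34e-13), whereas Itgax was higher in MDSC by 0.87. The genes thus differed among themselves, with Itgal lowest in MDSC and Itgax lowest in GFE. RB minus GFW gave 2 higher and 5 lower, beside 25.8% and 26.5% of all genes. Among them, Itgax (-2.10) and Skap2 (-1.11) were lower and Fermt3 (0.67) higher. None of the 9 was called in GFK minus GFW by limma at an adjusted p under 0.05, beside 1.61% of all genes, and 1 had an unadjusted p under 0.05.

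Of 6 ligands of CD11b tested, GFE minus GFW gave 2 higher and 1 lower, beside 35.1% and 31.9% of all genes. RB minus GFW gave 2 higher and 2 lower, beside 25.8% and 26.5%, so the counts are near those of all genes. Icam2 was higher in GFE by 0.76 log2 and in RB by 1.01, both against GFW. Thy1, a binding partner of Mac-1 on other cells, was at 8.89 ± 0.24 in MDSC and 5.78 ± 0.03 in RB (3.11 log2, adjusted p = 1.08e-10). The fibrinogen genes Fga, Fgb and Fgg did not pass the filter.

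Ly6g, the antigen the spleen gate removes, split the spleen groups. On MDSC arrays, whose gate names no Ly6G, it had 5.83, 5.78 and 5.78 log2, and on GFE arrays 4.13, 4.17 and 4.36. It had 12.12, 12.09 and 12.03 on GFK arrays, but 6.19, 6.25 and 6.38 on RB arrays and 12.21, 12.15 and 12.19 on GFW arrays, which share 1 gate. No array of the high groups came near any array of the others, and every GFE value was near background. RB averaged 6.28 ± 0.10 and GFW 12.19 ± 0.03, a 60.1-fold lower signal in RB (-5.91 log2, SE 0.10, interval -6.11 to -5.71, adjusted p = 1.19e-15). GFE averaged 4.22 ± 0.12, and since this is near background its fall against GFW is at least 112-fold (at least 6.81 log2, measured -7.97, adjusted p = 1.23e-17). MDSC averaged 5.80 ± 0.03, 83.9-fold below GFW (-6.39 log2, adjusted p = 3.6e-16) and 1.39-fold below RB (-0.48 log2, interval -0.68 to -0.28, adjusted p = 0.00056). Down from the top the order was GFW, GFK, RB, MDSC, GFE. GFK and GFW arrays did not overlap, but their difference of -0.11 did not pass (interval -0.31 to 0.10, adjusted p = 0.747). MDSC stood above GFE by 1.58 log2 as measured and by at least 0.42 log2 (1.33-fold) against background (adjusted p = 1.89e-09).

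Neutrophil genes followed the same division in part. Of 13 listed genes, 9 were lower in RB than in GFW and 1 was higher (median -1.17 log2), beside 26.5% of all genes called lower. Mmp9, the gelatinase of late neutrophil granules, was 7.33 ± 0.10 in RB and 12.20 ± 0.04 in GFW (-4.87 log2, adjusted p = 2.01e-13), and Cxcr2, the chemokine receptor by which mature neutrophils leave the marrow, was 7.98 ± 0.19 in RB and 12.79 ± 0.13 in GFW (-4.80). S100a8 differed less, with 12.03 ± 0.07 in RB and 12.97 ± 0.03 in GFW (-0.94). Camp, a secondary granule peptide, was higher in RB by 2.42 log2. In GFE minus GFW, 12 of 13 were lower (median -5.15), beside 31.9% of all genes called lower. Among them were S100a9 (-5.18), Mmp8 (-6.34) and Retnlg (at least 6.70 lower). The MDSC arrays were apart from both: 9 of 13 were higher than in RB and 3 lower, beside 27.4% and 20.7% of all genes. Elane and Mpo, the primary granule enzymes of immature neutrophils, were higher by 4.11 and 4.08, and Mmp9 was lower by 1.36. The mean level of the list per array ran from 9.79 to 9.83 in MDSC, 6.07 to 6.26 in GFE, 10.66 to 10.70 in GFK, 8.998 to 9.09 in RB and 10.55 to 10.66 in GFW. MDSC arrays were thus above RB arrays in this list and below them in Ly6g. Retnlg was near background on MDSC arrays, and Camp, Retnlg and Cd177 on GFE arrays. The part of neutrophil RNA in the Ly6g result was not tested.

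Ly6c2, the antigen the MDSC gate selects for, was the brightest on RB and MDSC arrays. It had 12.64, 12.68 and 12.75 log2 on MDSC, 7.71, 6.75 and 7.07 on GFE, 11.47, 11.65 and 11.46 on GFK, 13.001, 12.87 and 12.94 on RB and 11.55, 11.79 and 11.76 on GFW arrays. Every RB array lay above every MDSC array, both lay above all GFK and GFW arrays, and GFE arrays lay far below and varied most. RB averaged 12.94 ± 0.07, 2.36-fold above GFW at 11.70 ± 0.13 (1.24 log2, SE 0.17, interval 0.87 to 1.61, adjusted p = 2.49e-05). MDSC averaged 12.69 ± 0.06 and were 1.99-fold above GFW (0.99 log2, interval 0.62 to 1.36, adjusted p = 0.00013). GFE averaged 7.18 ± 0.49, 23.0-fold below GFW (-4.52 log2, interval -4.89 to -4.15, adjusted p = 4.02e-12). The order was RB, MDSC, GFW, GFK, GFE. MDSC minus RB was -0.25 (interval -0.62 to 0.12, adjusted p = 0.268) and GFK minus GFW was -0.17 (interval -0.54 to 0.20, adjusted p = 0.783), so neither pair of neighbours passed.

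Classical monocyte genes were called in 8 of 8 cases higher in RB than in GFW (median 3.08 log2), beside 25.8% of all genes. Fn1, a matrix protein made by monocytes, was 12.24 ± 0.03 in RB and near background in GFW (at least 6.70 log2 higher), F13a1, the factor XIII chain, was higher by 6.06 and Ccr2, the receptor by which classical monocytes leave the marrow, by 3.13. MDSC, with a Ly6c2 level close to that of RB, had 7 of the 8 lower than RB and none higher (median -3.69), beside 20.7% of all genes called lower. F13a1 was 5.81 ± 0.11 in MDSC and 11.81 ± 0.13 in RB (-5.99 log2, adjusted p = 6.34e-13), and Vcan, the exception, was 9.62 ± 0.10 in MDSC and 9.93 ± 0.92 in RB (-0.31, adjusted p = 0.462). The mean level of the list per array ran from 7.60 to 7.67 in MDSC, 7.11 to 7.14 in GFE, 7.30 to 7.69 in GFK, 11.14 to 11.31 in RB and 7.39 to 7.46 in GFW. RB arrays were far above all others in the mean of this list and GFE arrays were the lowest, whereas Ly6c2 was high on MDSC arrays too. The single genes were mixed in GFE: 3 were higher than in GFW and 4 lower by limma, beside 35.1% and 31.9% of all genes. Ms4a6c was 11.22 ± 0.05 in GFE and 8.10 ± 0.04 in GFW, and Cx3cr1 was 9.66 ± 0.09 in GFE and 7.77 ± 0.20 in GFW. The part of monocyte RNA in the Ly6c2 result was not tested. F13a1 and Vcan were near background on GFE arrays, Fn1 on GFK arrays and Fn1 and Vcan on GFW arrays.

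**Figure D3:**
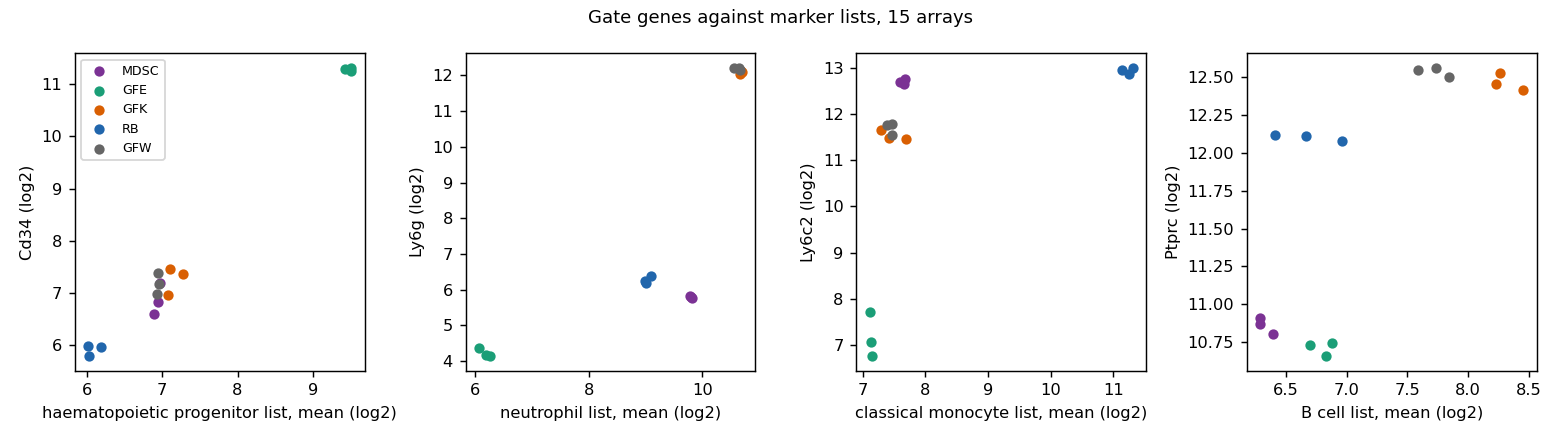
Gate gene level (y axis, log2) against the mean log2 level of a marker list (x axis) on each of the 15 arrays, coloured by group, for Cd34 and progenitor genes, Ly6g and neutrophil genes, Ly6c2 and classical monocyte genes, and Ptprc and B cell genes. MDSC arrays lie at 9.79 to 9.83 in the neutrophil list with Ly6g at 5.78 to 5.83, and at 7.60 to 7.67 in the monocyte list with Ly6c2 at 12.64 to 12.75.

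Ly6g and Ly6c2 are neighbours on chromosome 15, with 1 protein-coding gene, Ly6a2, annotated between them. Ly6a2, named here for its place and after its values were seen, was 11.61 ± 0.05 in MDSC, 6.76 ± 0.15 in GFE, 9.69 ± 0.08 in GFK, 12.30 ± 0.08 in RB and 9.15 ± 0.18 in GFW. RB and MDSC were its highest groups, as for Ly6c2, whereas GFW and GFK were the highest for Ly6g, and GFE was the lowest for all 3 genes. Ly6i, which lies beyond Ly6c1 on the other side of Ly6c2, was 4.77 ± 0.36 in MDSC, 6.17 ± 0.24 in GFE, 10.97 ± 0.04 in GFK, 7.80 ± 0.55 in RB and 10.10 ± 0.12 in GFW, with GFK and GFW the highest as for Ly6g. Ly6e, farther out, stayed between 12.09 and 12.94 in the means of the 5 groups. Ly6c1, the near twin of Ly6c2, did not pass the filter, with group means of 3.87 to 5.21.

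Across the Ly6 family and its anchored relatives, 12 genes were tested, of which 3 were higher and 5 lower in GFE than in GFW, near the 35.1% and 31.9% of all genes. Plaur, the urokinase receptor, was 7.30 ± 0.02 in GFE and 11.27 ± 0.03 in GFW (-3.97 log2, adjusted p = 5.8e-15), Ly6i fell by 3.93 and Cd177, a neutrophil antigen, by at least 5.01. Ly6d, an antigen of early lymphoid cells, rose by 1.63. Cd59a, which blocks the complement attack complex, was 6.58 ± 0.23 in GFE and near background in the other 4 groups, so it passed the filter through GFE, and without it 2 of 11 were higher and 5 lower. In RB minus GFW, 1 was higher, Lynx1 (0.89), and 4 were lower, among them Ly6i (-2.30) and Ly6d (-1.53), beside 25.8% and 26.5% of all genes. MDSC minus RB gave 2 higher and 4 lower, beside 27.4% and 20.7%, with 1 higher without Cd59a or without MDSC replicate 1, MDSC replicate 2 or RB replicate 3. Ly6i was near background in MDSC and at least 2.43 lower than in RB. Of 20 genes that build the GPI anchor, 9 were higher in GFE than in GFW and 3 lower (1 without GFE replicate 1 or with array medians subtracted, 5 after a second quantile normalisation), beside 35.1% and 31.9% of all genes. Pigu, a subunit of the enzyme that attaches the anchor, was 9.32 ± 0.06 in GFE and 7.18 ± 0.28 in GFW (2.14 log2, adjusted p = 1.53e-07), and Pigk, its catalytic subunit, rose by 1.21. RB minus GFW gave 7 higher and 3 lower (1 without GFW replicate 3 or RB replicate 3 or with array medians subtracted, 5 after a second quantile normalisation), beside 25.8% and 26.5% of all genes. Pgap1, which removes a fatty acid from the anchor, was 8.30 ± 0.26 in RB and 5.76 ± 0.12 in GFW (2.54 log2).

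Ptprc, the CD45 gene, was bright in all groups, and its groups fell into a high and a low set. It had 10.87, 10.91 and 10.80 log2 on MDSC, 10.66, 10.74 and 10.73 on GFE, 12.45, 12.52 and 12.42 on GFK, 12.11, 12.08 and 12.12 on RB and 12.54, 12.50 and 12.56 on GFW arrays. The groups grown in culture, MDSC and GFE, lay below all arrays of freshly sorted cells. GFE averaged 10.71 ± 0.05, 3.54-fold below GFW at 12.53 ± 0.03 (-1.82 log2, SE 0.09, interval -2.01 to -1.64, adjusted p = 4.11e-11). MDSC averaged 10.86 ± 0.06, 3.18-fold below GFW (-1.67 log2, interval -1.85 to -1.49, adjusted p = 1.7e-10) and 2.36-fold below RB (-1.24 log2, interval -1.42 to -1.06, adjusted p = 7.7e-09). RB, at 12.10 ± 0.02, was 1.35-fold below GFW (-0.43 log2, interval -0.62 to -0.25, adjusted p = 0.000649). GFW, GFK, RB, MDSC and GFE was the order from the top. Both ends held pairs that did not pass: GFK minus GFW was -0.07 (interval -0.25 to 0.11, adjusted p = 0.843), and MDSC minus GFE was 0.15 (interval -0.03 to 0.34, adjusted p = 0.2) although those arrays did not overlap.

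Partners and substrates of CD45 moved in opposite directions in the cultured cells. Of 13 tested, 3 were higher in GFE than in GFW and 8 lower (median -0.54 log2), beside 35.1% and 31.9% of all genes. Fgr, a Src family kinase of myeloid cells, was 6.20 ± 0.15 in GFE and 11.24 ± 0.05 in GFW (-5.03 log2, adjusted p = 1.23e-13), and Pag1, which anchors the kinase inhibitor Csk, fell by 2.56. Lgals1, the galectin that binds CD45 sugars, was 11.68 ± 0.06 in GFE and 8.48 ± 0.20 in GFW (3.20 log2, adjusted p = 5.56e-12), Fyn, another Src family kinase, rose by 2.13 and Ptprcap, the CD45-associated protein, by 1.61. RB minus GFW gave 4 higher and 7 lower, beside 25.8% and 26.5% of all genes, with Lgals1 higher by 2.84, Fyn by 1.80 and Ptpn22, a phosphatase that opposes Src kinases, by 1.22, and Jak2 lower by 1.16. In MDSC minus RB, 2 were higher (1 without any single MDSC or RB array other than RB replicate 2) and 7 lower, beside 27.4% and 20.7% of all genes, with Fgr at 7.56 ± 0.28 in MDSC and 10.43 ± 0.13 in RB (-2.87). Of 6 factors that choose CD45 exons or bind its transcript, 4 were higher and 1 lower in GFE than in GFW (0 lower with array medians subtracted), beside 35.1% and 31.9% of all genes. Ptbp1, a splicing repressor, was 11.02 ± 0.04 in GFE and 9.60 ± 0.12 in GFW (1.43 log2, adjusted p = 2.6e-09). Hnrnpll, the regulator that makes T cells skip the CD45 exons, was 8.80 ± 0.12 in GFE and 9.03 ± 0.23 in GFW (-0.24, adjusted p = 0.101), and it was higher in MDSC than in RB by 0.78.

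**Figure D4:**
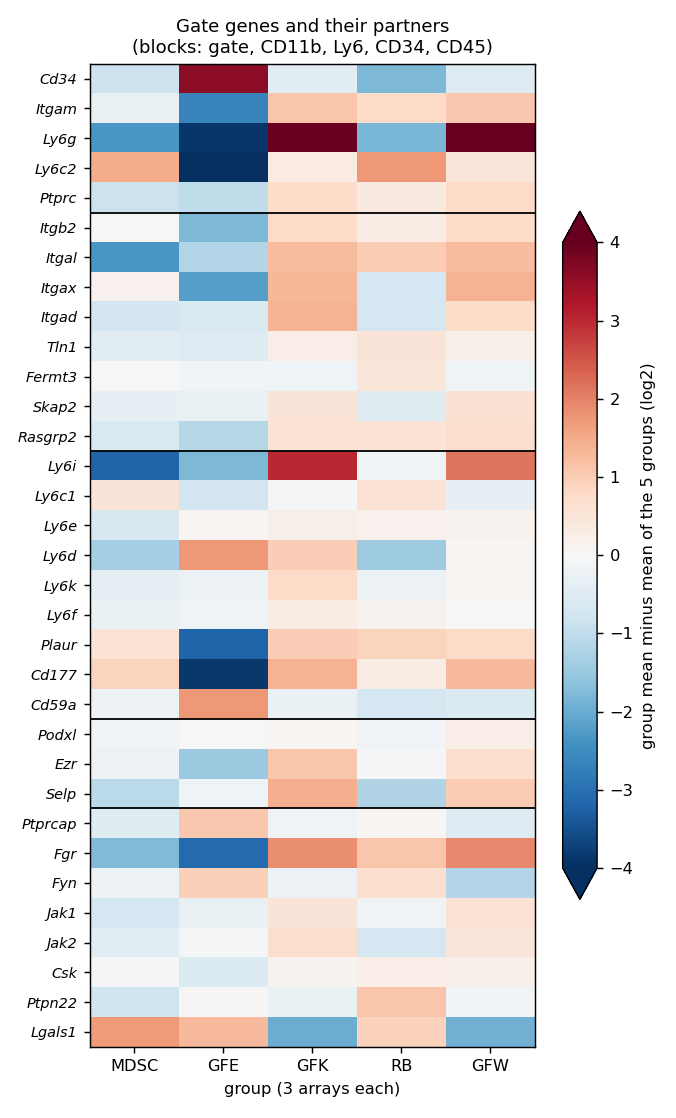
Group means of the gate genes and of listed partners (rows) in the 5 groups (columns), each as the difference from the mean of the 5 groups in log2 (colour, limited to ±4), in blocks for the gate, CD11b, Ly6, CD34 and CD45. Itgb2 and Itgal are low in GFE with Itgam, Ly6i is high in GFK and GFW with Ly6g, and Lgals1 is low in GFK and GFW.

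The other antigens removed in the spleen sort were low. Cd4 had group means of 5.82 ± 0.10 in MDSC, 6.08 ± 0.17 in GFE, 6.15 ± 0.42 in GFK, 5.705 ± 0.13 in RB and 6.22 ± 0.17 in GFW. Cd8a and Cd8b1 were near background in MDSC, GFE and RB, and Cd8a was 5.83 ± 0.34 in GFK and 6.10 ± 0.27 in GFW. Together with Ly6g and Ptprc, 5 such genes were tested, of which 5 were lower in RB than in GFW, beside 26.5% of all genes, and 4 in GFE than in GFW, beside 31.9%. Besides Ly6g and Ptprc, whose differences are given above, these are Cd4, Cd8a and Cd8b1, the last of which passed the filter through GFW alone. Without Cd8b1, 4 of 4 were lower in RB than in GFW and 3 of 4 in GFE than in GFW. The Cd4 fall in RB (-0.51, adjusted p = 0.0195) was lost without GFW replicate 3 (adjusted p = 0.0809) or RB replicate 1 (0.0725). B cell genes are the markers of the cells that B220 should remove. Of 6 tested, 5 were lower in RB than in GFW and none higher, beside 26.5% and 25.8% of all genes, and Cd22 was 6.76 ± 0.85 in RB and 8.39 ± 0.13 in GFW (-1.63, adjusted p = 0.000282). Ighm, the IgM heavy chain, was 13.03 ± 0.01 on arrays labelled knockout and 11.72 ± 0.15 on GFW arrays (1.30 log2, adjusted p = 3.45e-06), and Cd79a was 7.62 ± 0.28 in GFK and 6.04 ± 0.45 in GFW (1.58, adjusted p = 0.000957). Arrays labelled knockout thus differed from GFW in 2 of 6 B cell genes, both higher, beside 1.3% of all genes called higher. By limma, Cd79b (0.34, adjusted p = 0.383), Ms4a1 (0.20, 0.845), Cd22 (0.12, 0.932) and Pax5 (0.02, 0.978) did not pass there, nor did Ptprc. The mean level of the B cell list per array ran from 6.29 to 6.39 in MDSC, 6.70 to 6.88 in GFE, 8.23 to 8.46 in GFK, 6.41 to 6.96 in RB and 7.59 to 7.84 in GFW, and its part in the Ptprc levels was not tested. Cd79a and Ms4a1 were near background in MDSC, GFE and RB.

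The study's other gates use Csf1r (CD115), Kit (CD117), Flt3 (CD135) and Ly6C. Csf1r, the receptor of the growth factor for monocytes, was 9.13 ± 0.09 in MDSC, 8.36 ± 0.14 in GFE, 10.53 ± 0.07 in GFK, 11.58 ± 0.11 in RB and 10.32 ± 0.05 in GFW. It was higher in RB than in GFW by 1.26 log2 (adjusted p = 6.9e-08), lower in GFE than in GFW by 1.96 and lower in MDSC than in RB by 2.44. Kit was 3.44 log2 higher in MDSC than in RB (8.96 ± 0.17 in MDSC, 5.52 ± 0.49 in RB), and Flt3 was 1.69 lower (5.39 ± 0.16 in MDSC, 7.08 ± 0.44 in RB).

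Likeness of pattern was measured as Pearson's r of log2 levels over the 15 arrays, among 6162 genes whose group means ranged over at least 1 log2, as a description: the arrays fall into 5 groups, so r mostly reads the group means. For Cd34 the closest were Il1r1 (the interleukin-1 receptor), Aff3, F2r (a thrombin receptor), Adgrg1 and Vldlr, with r of 0.985 to 0.992, and Il1r1 was 5.95 ± 0.29 in MDSC, 9.44 ± 0.07 in GFE, 6.16 ± 0.19 in GFK, 5.42 ± 0.35 in RB and 6.22 ± 0.15 in GFW. For Itgam they were Rara (a retinoic acid receptor), Tgfbi, Pik3r5, Dok3 and Rasgrp4, with r of 0.994 to 0.998. Ly6g was closest to Klra17 (a lectin-like receptor of the Ly49 family), Ppp1r3d, Snap23, Numb and B4galt3, with r of 0.992 to 0.994, and Klra17 was 5.14 ± 0.34 in MDSC, 4.20 ± 0.10 in GFE, 9.76 ± 0.11 in GFK, 5.10 ± 0.19 in RB and 10.07 ± 0.08 in GFW. Naaa, Grn (progranulin), Vim (vimentin), Sort1 and Psap (prosaposin) were closest to Ly6c2, with r of 0.980 to 0.994. Ptprc was closest to Ifngr1 (the interferon gamma receptor), Trib1, Mefv, Btg2 and Btg1, with r of 0.993 to 0.997. An r above 0.95 was reached by 80 genes for Cd34, 145 for Itgam, 174 for Ly6g, 25 for Ly6c2 and 187 for Ptprc. Among the members, Cd34 and Ly6c2 ran opposite (r = -0.98), as did Cd34 and Itgam (-0.88), Itgam and Ptprc ran together (0.87), as did Ly6g and Ptprc (0.87), and Ly6g and Ly6c2 did so least among the pairs of positive sign (0.35). For Cd34 and Itgam, GFE was the highest in the first and the lowest in the second. Among the other groups GFK had the highest mean of both genes (7.27 and 11.72).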

How the data were processed

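The authors deposited log2 signals of 41345 probe sets for 15 arrays, made with RMA in the oligo package per the submitters' processing notes. RMA corrects background, gives the probe values of all arrays 1 distribution and then sums probes on the log2 scale. A change of total RNA per cell therefore cannot be seen. Neither the package versions nor the array's genome build is stated in the labels. Per the labels' protocols, 6 ug of total RNA was used. The array medians ran from 5.52 to 5.72, and no 2 arrays held identical values.

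Probe sets were named from the platform annotation: 23521 had 1 gene symbol, 1814 several and 16010 none, and the last 2 kinds were not used. By gene ID, 23328 matched RefSeq's table (GRCm38.p6), with 0 symbols changed. Of 22180 genes, 1082 had several probe sets, and the one with the highest mean was used. Genes above the 40th percentile of the array's probe sets (5.34 to 5.58 log2) on at least 3 arrays were tested, which kept 14822 and removed 7358. A group mean below that percentile is called near background, and then a difference is given as at least the brighter mean minus the percentile.

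One mean per group was fitted to all 15 arrays with limma 3.58.1 in R 4.3.3 (10 residual and 5.33 prior degrees of freedom), with p-values adjusted by Benjamini-Hochberg over 14822 genes in each of 10 comparisons. Tables, windows and plots used Python 3.11.15, pandas 2.3.3 and matplotlib 3.10.9, and promoter windows were aligned with Biopython 1.88. Tested on simulated data for RB minus GFW (14822 genes, 100 changed at each size), the fit recovered 89% of changes of 1 log2 and 100% of changes of 2 log2, with 10 false calls.

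The genes named are the members, the genes of 19 lists (180 different genes, 161 measured) and, for each member, the 5 genes of highest r. Members and lists were chosen with earlier results of these data known. Alternatives were other scalings, filters and variance models, fewer arrays and each array left out. Arrays of one replicate number did not deviate together (correlations of -0.13 to 0.10 over 30 pairs of arrays), so numbers were not used as pairs. Monocytes and progenitors of untreated mice were not analysed here.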

Additional observations from a re-analysis of the deposited data

Results flagged for a closer look

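A second probe set lists Cd34 together with the gene model Gm16897, and was not used for any comparison because it names more than 1 gene. It carried signal on the cultured cells: it had 6.61, 6.55 and 6.77 log2 on GFE arrays, a mean of 6.64 ± 0.11 (SD, n = 3), against 4.23 to 4.95 on the other 12 arrays. The GFE arrays were the highest, as they were in the probe set used for Cd34 (11.25 to 11.31 on GFE arrays), and the difference was not tested.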

How the results depend on the processing

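Of the 50 differences of the 5 genes, 45 kept their side of the threshold under every alternative tried (697 of 715 fits), and no called difference changed sign. Cd34 in GFK minus GFW (0.08), not called in any fit, ran from -0.02 to 0.23 with 1 array left out. For the other 5 the cause was not tested. Cd34 in MDSC minus GFK (-0.39, adjusted p = 0.0443) missed the threshold with the 6 arrays fitted alone (-0.39, 0.0869), with array medians subtracted (-0.28, 0.158), with no filter (-0.39, 0.0585) and with the replicate block (-0.39, 0.0564), and ran from -0.55 to -0.25 with 1 array left out. Cd34 in MDSC minus GFW passed after a second quantile normalisation (-0.49, 0.0116) and ran from -0.47 to -0.17 with 1 array left out. Itgam in GFK minus RB missed it with the 6 arrays alone (0.34, 0.0533) and after quantile normalisation (0.22, 0.0612). Itgam in RB minus GFW missed it with the 6 arrays alone (-0.29, 0.0824), with array medians subtracted (-0.23, 0.0823) and after quantile normalisation (-0.16, 0.148), and ran from -0.33 to -0.23 with 1 array left out. Ptprc in MDSC minus GFE passed with a trended, robust variance (0.15, 0.0215). The genes called in GFK minus GFW, 192 higher and 47 lower, moved most. With the 6 arrays alone they were 72 and 2. The lower ones were 29 with array medians subtracted, 30 with no filter and 79 with the trended variance, and with 1 array left out the higher ones ran from 102 (without GFK replicate 3) to 150 and the lower ones from 27 to 42. The replicate block changed no other call of the 5 genes. Of 572 differences of list genes, 476 kept their call throughout, and 121 of 152 counts over lists stayed within 1.5 times. Signal near background limits Ly6g in GFE to a bound.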

Other observations

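MDSC and RB arrays were also compared in markers of other cell types, where 27.4% of all genes were higher in MDSC and 20.7% lower. The spleen gate of RB removes cells with CD4, CD8 or Ter119, antigens of T and erythroid cells. The MDSC gate does not name these antigens. Of 5 eosinophil genes tested, 3 were higher in MDSC and 0 lower by limma, also at an unadjusted p under 0.05 (1 higher with a filter at the 60th percentile). Ear6, an eosinophil ribonuclease, was near background in the other 4 groups and passed the filter through MDSC, and without it 2 of 4 were higher. Prg2, the major basic protein, was at least 3.57 log2 higher. Of 4 mast cell and basophil genes, 2 were higher and 1 lower (1 and 1 of 3 without Cpa3, which passed the filter through MDSC alone), with Mcpt8, a basophil protease, 2.44 log2 higher. Of 4 erythroid genes, 1 was higher and 0 lower by limma, also at an unadjusted p under 0.05: Tfrc, the transferrin receptor of dividing and erythroid cells, was 4.38 log2 higher in MDSC, while Epor (0.13, adjusted p = 0.439) did not pass. Of 4 T and NK cell genes, 1 was higher, Nkg7 (2.02), a granule protein of cytotoxic cells, and 1 lower, Cd2 (-1.15, adjusted p = 0.000191), a T and NK cell adhesion protein. Of 8 macrophage genes, 6 were lower in MDSC than in RB and 0 higher by limma, also at an unadjusted p under 0.05, with a median of -0.93 log2. Cd5l, 1 of the 6, was near background in both groups, and its call was lost in 2 alternative fits (adjusted p up to 0.0675). The T cell genes Cd3e and Cd3g were near background in all 5 groups.

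Arrays labelled knockout had more RNA of Cd5l, a macrophage protein of the spleen, than GFW arrays (1.66 log2, limma adjusted p = 0.000222). The higher Ighm and Cd79a are given above. Of the 8 macrophage genes, 2 were higher and 0 lower in this comparison by limma, beside 1.3% and 0.317% of all genes. The other was C1qb (0.84, adjusted p = 0.0404), a call lost in 8 alternative fits (adjusted p up to 0.139). The remaining 6 did not pass.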
